A study of Mus musculus with 12 samples.

Results

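The nasal prominences of E10.5 mouse embryos were compared with the maxillary prominences of the same genotype, Neo/Wt. The comparison used 6 of the 12 arrays of the series, 3 of nasal and 3 of maxillary tissue, and 23025 probe sets (groups of short oligonucleotides that measure 1 transcript) of the 45037 left after 64 array control rows were removed. A probe set entered where the deposited detection calls listed it as present in the nasal group, the maxillary group or both. Neo/Wt embryos carried 1 wild-type allele of *Tfap2a*, which encodes the transcription factor AP-2α, and 1 Neo allele, in which a *neomycin resistance* cassette sits in an intron and lowers normal splicing. The labels give this genotype as aflox/wt and the groups as control nasal and control maxilla. The other 6 arrays came from Neo/Null embryos, in which the second allele was null, so that all 12 arrays carried the Neo allele and none was fully wild type. Neo/Wt embryos look normal and served as the study's controls. Each group held 3 independent pools of embryos on an outbred Black Swiss background. The number of embryos in a pool, and whether nasal and maxillary tissue of a pool came from the same embryos, are not given in the sources used here, and the nasal fraction joined the medial and lateral nasal prominences.

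The face forms from buds of neural crest-derived mesenchyme covered by ectoderm, which grow around the mouth and later fuse. The nasal prominences surround the olfactory pits and lie over the forebrain and eye, while the maxillary prominence belongs to the first pharyngeal arch and carries branches of the trigeminal nerve. Homeobox genes give each bud its regional identity, and Fgf, Wnt, Bmp, Shh and retinoic acid signals from ectoderm and brain pattern the mesenchyme.

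Values were log2 signals with array medians between 5.13 and 5.19. Across probe sets, nasal arrays correlated with each other at 0.9955 to 0.9975, maxillary arrays at 0.9937 to 0.9975, and nasal with maxillary arrays at 0.9862 to 0.9889. One library stood apart. Maxilla replicate 3 was the lowest of its group in 14 of 15 genes of differentiating neurons, with a median gap of -1.83 to the mean of the other two. The summed signal of these genes was 1834 in that array, against 4700 and 4047 in maxilla replicates 1 and 2 and 2137 to 2462 in the nasal arrays. The targeted gene did not separate the tissues: *Tfap2a* read 9.06, 9.12 and 9.19 in nasal and 9.11, 9.10 and 9.08 in maxilla, a difference of 0.02 (adjusted p = 0.873).

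By limma's moderated test on all 12 arrays, with Benjamini-Hochberg adjustment over all probe sets, 949 probe sets (4.12%) were higher in nasal and 986 (4.28%) higher in maxilla at an adjusted p under 0.05. Counting 1 probe set per gene, 594 of 10967 genes (5.42%) were higher in nasal and 511 (4.66%) in maxilla, 10.1% together, as against 8.40% of probe sets. The median difference over all these genes was -0.01 on the log2 scale, nasal minus maxilla. Most differences were modest, with a median fold of 1.47 among probe sets higher in nasal and 1.42 among those higher in maxilla. At least 2-fold differences were found for 189 (0.821%) and 126 (0.547%) probe sets, or 131 (1.19%) and 68 (0.620%) genes, and at least 8-fold differences for 11 and 10. Among probe sets higher in nasal, 90 were called absent in maxilla and 117 variable, and among those higher in maxilla 53 were called absent in nasal and 93 variable. A probe set that entered only through its high group had to differ to some degree, so these counts are descriptions. Leaving out 1 Neo/Wt array at a time gave 636 to 873 probe sets higher in nasal and 593 to 911 higher in maxilla, the 593 without nasal replicate 1. Because whole prominences were measured, fewer cells of a type and less RNA per cell cannot be told apart in any of the results.

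**Figure D1:**
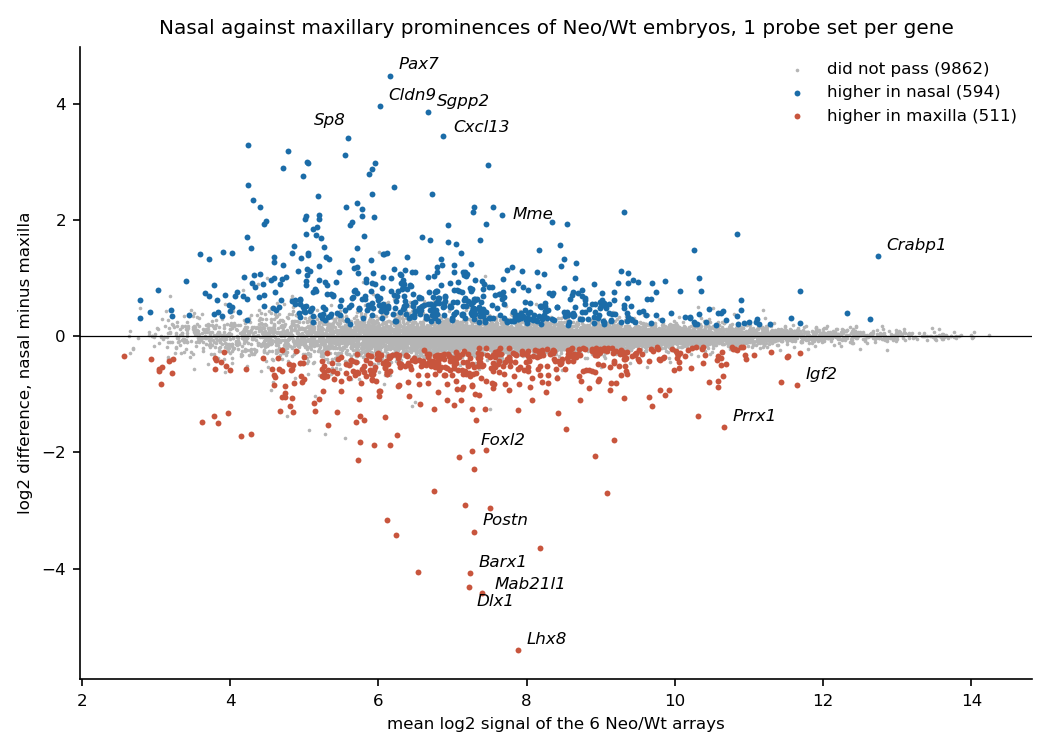
The log2 difference (nasal minus maxilla, vertical axis) is plotted against the mean log2 signal of the 6 Neo/Wt arrays (horizontal axis) for 10967 genes, with 594 genes higher in nasal in blue, 511 higher in maxilla in red and the rest in grey. The genes with differences of over 4 in either direction are *Pax7* on the nasal side and *Lhx8*, *Mab21l1*, *Dlx1* and *Barx1* on the maxillary side, along with 1 unnamed clone on the maxillary side.

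With each gene read from its brightest probe set, the largest nasal difference among named genes belonged to *Pax7*, a paired box transcription factor of neural crest and neural tube. It read 8.35, 8.76 and 8.10 in nasal and 3.93, 4.20 and 3.64 in maxilla, where it was called absent. Nasal signal was at least 22.3-fold higher (95% interval of the fitted fold 17.0 to 29.3, adjusted p = 4.46e-08). Before the fold of a gene, "at least" marks an absent call in the lower tissue and is not a lower confidence limit. A second, dimmer *Pax7* probe set gave at least 5.39-fold. *Cldn9*, a tight junction claudin, read 7.83, 8.09 and 8.09 against 3.15, 4.28 and 4.70 (15.6-fold, adjusted p = 2.19e-05), and its second probe set gave at least 3.12-fold. *Sgpp2*, a phosphatase of sphingosine-1-phosphate, read 8.63, 8.60 and 8.57 against 5.09, 4.81 and 4.33 (14.5-fold, adjusted p = 5.24e-08). Both genes were high in every nasal array. *Cxcl13*, a chemokine best known for guiding B cells, read 8.76, 8.51 and 8.50 against 5.08, 5.57 and 4.81 (10.8-fold, adjusted p = 4.27e-07), and its second probe set, called variable in maxilla with a mean of 3.45 there, gave a fitted 58.5-fold. *Sp8*, a zinc finger factor of facial ectoderm and olfactory placode, read 7.07, 7.35 and 7.46 against 3.97, 3.55 and 4.10 (10.7-fold, adjusted p = 1.25e-07). Neither gene overlapped between the tissues. The smallest p of the nasal genes was that of *Mme*, a membrane metalloendopeptidase, at 8.71, 8.72 and 8.70 against 6.59, 6.59 and 6.70 (4.24-fold, adjusted p = 2.94e-08).

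Several further leading nasal genes are best known from neural tissue. *Nr2e1*, an orphan receptor of neural progenitors, was at least 9.70-fold higher in nasal, *Htr3b*, a serotonin receptor subunit, at least 9.10-fold, and *Pcp4*, a calmodulin regulator, at least 8.64-fold, all 3 called absent in maxilla. A second *Nr2e1* probe set gave at least 2.53-fold. *Otx2*, a homeobox gene of forebrain and eye, read 7.17, 7.36 and 7.82 in nasal and 4.11, 4.07 and 5.23 in maxilla (7.87-fold, adjusted p = 0.00029). Its highest maxillary value came from replicate 3 and still lay below every nasal value. *Dlx6os1*, a noncoding RNA whose locus contains *Dlx6*, was 7.98-fold higher (adjusted p = 2.94e-08). *Dlx6* itself was called variable in nasal and absent in maxilla and was not tested. The remaining leading nasal genes were *Prr15* (at least 7.88-fold), *Hpgd*, which degrades prostaglandins (7.70-fold), *Papss2*, which makes the sulfate donor for proteoglycans (at least 7.39-fold), *Irs4*, an insulin receptor substrate (7.36-fold), and *Fezf1*, a zinc finger gene of forebrain and olfactory development (at least 6.94-fold). For all of these the 3 nasal values lay above the 3 maxillary values, which the rule that chose them required.

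On the maxillary side *Lhx8*, a LIM homeobox gene of oral mesenchyme and palate, led. It read 10.75, 10.61 and 10.40 in maxilla and 5.70, 5.55 and 4.30 in nasal (42.3-fold, 95% interval 25.6 to 70.1, adjusted p = 1.74e-06). The tissues lay far apart, with nasal replicate 3 the lowest array. *Mab21l1*, a gene of eye and craniofacial development, read 9.78, 9.66 and 9.38 in maxilla against 5.35, 5.30 and 4.90 in nasal (21.4-fold, adjusted p = 4.46e-08). *Mab21l2*, its paralog, read 10.24, 10.32 and 9.45 against 6.41, 6.54 and 6.10 (12.6-fold, adjusted p = 3.5e-06). The paralogs thus shared a direction and both were low in all nasal arrays. *Dlx1*, which with *Dlx2* marks the upper part of the first arch, read 9.36, 9.31 and 9.46 against 4.89, 5.11 and 5.18 (19.9-fold, 95% interval 16.8 to 23.5, adjusted p = 3.91e-09), the smallest p of all genes. *Barx1*, a homeobox gene of molar mesenchyme, read 9.47, 9.44 and 8.89 against 5.32, 5.23 and 5.03 (16.8-fold, adjusted p = 2.94e-08). *Postn*, which encodes the matrix protein periostin, read 9.06, 9.01 and 8.86 against 5.62, 5.62 and 5.61 (10.3-fold, adjusted p = 2.94e-08). None of these genes overlapped between the tissues, which the rule that chose them required.

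*Lhx6*, the close relative of *Lhx8*, was called absent in nasal and was at least 10.7-fold higher in maxilla (adjusted p = 1.85e-05), and its second probe set gave at least 2.55-fold (adjusted p = 0.0103). Of the 30 leading genes, 7 had a second tested probe set, and all 7 passed in the same direction, 4 with a fold over 1.5 times smaller and 1 with a larger one. *Foxl2os*, an antisense RNA next to the forkhead gene *Foxl2*, was 8.96-fold higher, and *Foxl2* itself 3.93-fold. *Vgll2*, a cofactor of TEAD factors, was at least 7.72-fold higher in maxilla, and *Ndnf*, a secreted neurotrophic factor, 7.48-fold. *Lrba*, a vesicle trafficking gene, was 6.49-fold higher, and *Mab21l2* lies inside *Lrba* on the opposite strand, so the 2 signals share a locus. *Mab21l1* likewise lies inside *Nbea*, which was 1.58-fold higher in maxilla and was named for that position after its value was seen. *Dlx2* was 4.85-fold higher, and *Osr1*, a zinc finger gene of palate and limb mesenchyme, 4.36-fold. Maxilla replicate 3 was low for *Osr1*, *Nefm* and *Fabp7*, and without it *Osr1* was 6.46-fold higher. *Nefm*, a neurofilament subunit of growing axons, read 9.15, 8.85 and 6.24 in maxilla and 5.68, 5.84 and 4.75 in nasal (6.31-fold, adjusted p = 0.0248), and 11.9-fold without maxilla replicate 3 (adjusted p = 0.000329). Its call was lost without nasal replicate 1, nasal replicate 3, maxilla replicate 1 or maxilla replicate 2 (adjusted p up to 0.0950). *Fabp7*, a fatty acid binding protein of radial glia and crest-derived glia, was 4.23-fold higher, 6.40-fold without maxilla replicate 3 (adjusted p = 9.24e-05), and missed the threshold with the replicate block on the 6 arrays (adjusted p = 0.0620).

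**Figure D2:**
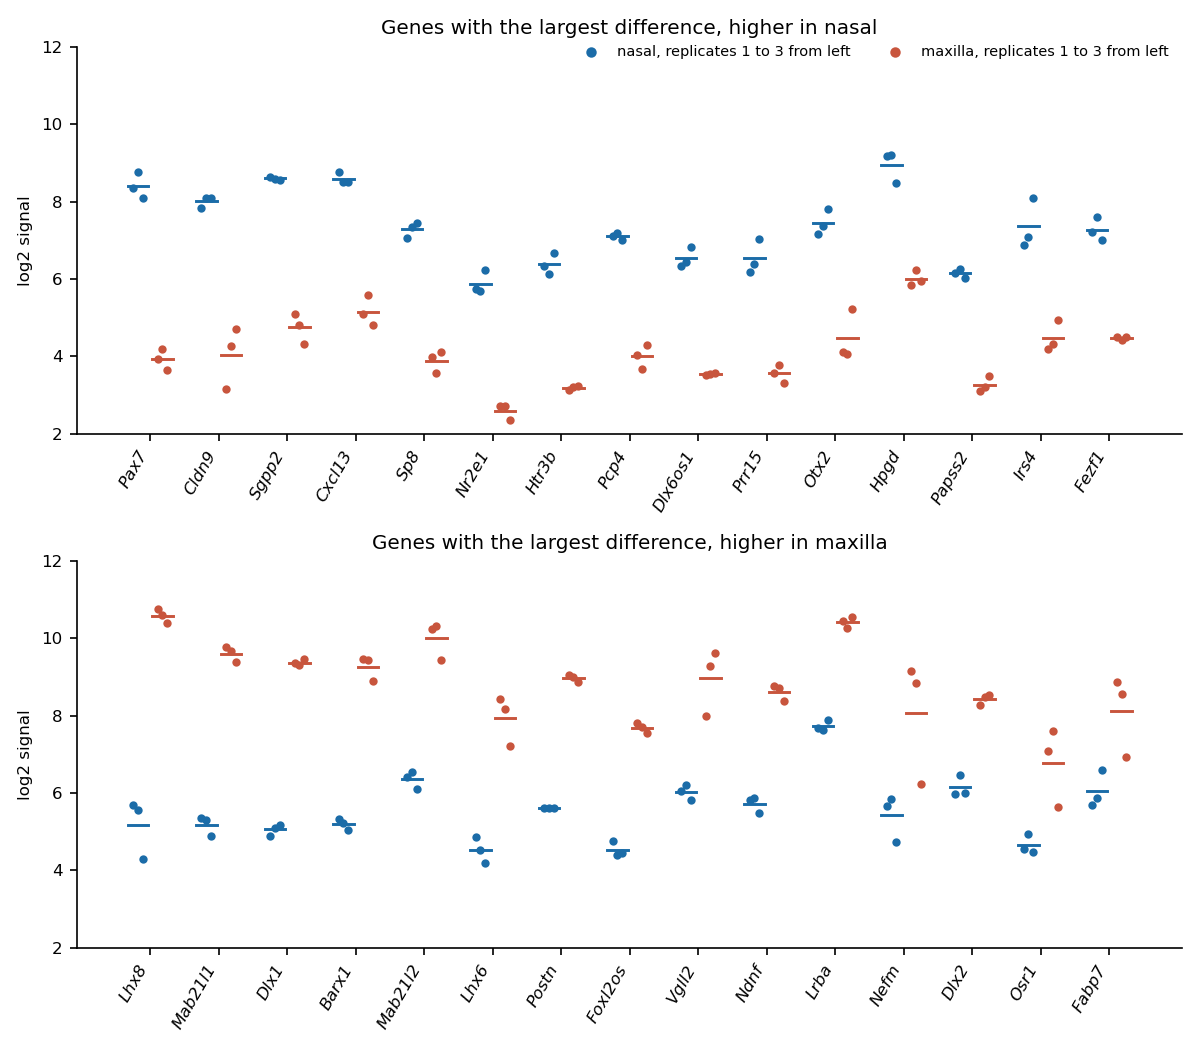
Log2 signals (vertical axis) of the 15 leading genes of each direction are shown for every array, nasal in blue and maxilla in red, replicates 1 to 3 from left to right, with a bar at each group's mean. The groups do not overlap for any of the 30 genes, which the rule that chose them required. The third maxillary point falls toward the nasal values for *Nefm*, *Osr1* and *Fabp7*.

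Promoters of 7 genes are shown because each holds a homeodomain-type motif in the 250 bases before its start, and they were picked for that after the search. The motif TAATTA is a core bound by many homeodomain proteins, and TAAT and ATTA separated by 3 bases is the spaced pair bound by paired-class dimers. Both motifs read the same on the opposite strand, and matches may overlap. Capitals mark the matches in these RefSeq sequences (GRCm38.p6), for *Sp8* (chr12:118847309-118847558, + strand), *Otx2* (chr14:48665110-48665359, - strand), *Dlx6os1* (chr6:6869534-6869783, - strand), *Nr2e1* (chr10:42583591-42583840, - strand), *Htr3b* (chr9:48964991-48965240, - strand), *Six2* (chr17:85688255-85688504, - strand) and *Prrx1* (chr1:163313651-163313900, - strand).
Sp8: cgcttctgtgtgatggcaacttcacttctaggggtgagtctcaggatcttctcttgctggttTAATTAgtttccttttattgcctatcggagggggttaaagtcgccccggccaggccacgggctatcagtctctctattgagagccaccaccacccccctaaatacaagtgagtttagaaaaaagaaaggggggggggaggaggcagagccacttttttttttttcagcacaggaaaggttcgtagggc
Otx2: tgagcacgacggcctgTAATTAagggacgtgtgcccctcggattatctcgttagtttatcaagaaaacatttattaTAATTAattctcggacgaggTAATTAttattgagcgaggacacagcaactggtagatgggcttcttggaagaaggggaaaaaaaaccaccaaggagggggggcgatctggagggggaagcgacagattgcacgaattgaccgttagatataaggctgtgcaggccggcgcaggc
Dlx6os1: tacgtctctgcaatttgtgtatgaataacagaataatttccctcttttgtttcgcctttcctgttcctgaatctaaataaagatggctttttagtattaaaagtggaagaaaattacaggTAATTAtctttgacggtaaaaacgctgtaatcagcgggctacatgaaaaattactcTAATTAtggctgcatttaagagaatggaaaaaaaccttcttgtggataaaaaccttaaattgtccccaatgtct
Nr2e1: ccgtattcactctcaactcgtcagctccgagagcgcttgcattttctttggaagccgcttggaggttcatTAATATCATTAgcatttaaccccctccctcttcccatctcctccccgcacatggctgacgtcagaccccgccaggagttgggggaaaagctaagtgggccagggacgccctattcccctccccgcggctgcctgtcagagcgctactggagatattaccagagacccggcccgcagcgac
Htr3b: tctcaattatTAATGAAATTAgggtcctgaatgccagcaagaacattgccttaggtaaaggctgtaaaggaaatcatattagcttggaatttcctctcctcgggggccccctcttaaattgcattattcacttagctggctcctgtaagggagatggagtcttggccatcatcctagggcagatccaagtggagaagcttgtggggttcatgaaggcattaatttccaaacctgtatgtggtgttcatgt
Six2: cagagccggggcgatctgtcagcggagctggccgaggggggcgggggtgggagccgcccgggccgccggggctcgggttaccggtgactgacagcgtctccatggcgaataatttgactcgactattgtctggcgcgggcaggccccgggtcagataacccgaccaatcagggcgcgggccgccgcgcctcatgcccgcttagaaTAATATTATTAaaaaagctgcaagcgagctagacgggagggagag
Prrx1: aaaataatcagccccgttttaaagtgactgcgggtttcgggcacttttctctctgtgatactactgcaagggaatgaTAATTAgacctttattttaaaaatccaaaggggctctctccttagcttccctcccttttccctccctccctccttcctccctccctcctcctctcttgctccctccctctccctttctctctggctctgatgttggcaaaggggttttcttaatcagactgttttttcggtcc
*Otx2*, *Sp8* and *Dlx6os1* have 4, 3 and 2 starts, and for each a start with the most matches was printed. Of the windows printed, that of *Otx2* held 3 copies of TAATTA and that of *Dlx6os1* held 2. *Six2*, named only for its promoter, was called higher in nasal by 1.93 on the log2 scale. Over windows of 250 bases before to 50 after each start, TAATTA was present in 5.29% of all 32851 mouse promoters and 2.52% of those of tested genes. It was present in 8 of 136 promoters (5.88%) of genes at least 2-fold higher in nasal and 3 of 66 (4.55%) of genes at least 2-fold higher in maxilla. The spaced pair was present in 0.487% of all promoters, 0.236% of those of tested genes, 3 of 136 on the nasal side (2.21%) and 0.00% of 66 on the maxillary side. The AP-2 motif GCCNNNGGC, which also reads the same on both strands, was present in 16.6% of all promoters, 25.3% of tested, 22.1% of those at least 2-fold higher in nasal and 13.6% of those at least 2-fold higher in maxilla, but in 25.5% and 27.9% of those of all genes called higher in nasal and maxilla. For TAATTA the shares over all called genes were 3.49% and 3.16%, and for the spaced pair 0.499% and 0.395%. Promoters were found for 98 of 131 genes at least 2-fold higher in nasal and 51 of 68 in maxilla, and a gene with several starts was counted once per start. The median share of G and C bases was 52.7% over all promoters and 61.0% over those of tested genes. It was 58.0% and 55.0% for genes at least 2-fold higher in nasal and in maxilla. How far base content bears on the motif shares was not tested. A match describes the letters of a window and does not show binding.

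Genes were then read in lists by family and pathway. Over all lists, 528 genes were tested, of which 107 were higher in nasal and 102 in maxilla, 20.3% and 19.3%, against 5.42% and 4.66% of all genes. The members of each list were chosen with earlier results of these data known. In any list, a member that entered only through its high tissue had to differ to some degree, so list counts and medians are descriptions. Among homeobox and paired box families, all 4 tested *Pax* genes, of 8 on the array, and both tested *Alx* genes were higher in nasal (medians 2.24 and 1.18). Of these, *Pax7*, *Pax6* and *Alx4* were called absent in maxilla and entered only through nasal, which bound their direction. *Pax6*, the eye and forebrain regulator, was at least 5.91-fold higher, and *Pax3*, a crest regulator, read 8.45, 8.36 and 8.44 against 6.87, 6.75 and 5.86 (3.79-fold, adjusted p = 0.000331). *Alx1*, a gene of frontonasal mesenchyme whose loss disrupts the upper face, read 11.09, 11.16 and 10.75 against 9.65, 9.71 and 9.22 (2.78-fold, adjusted p = 7.83e-05). These genes were high in every nasal array. *Pax9*, a gene of palate and tooth mesenchyme, was 1.89-fold higher, and *Alx4* at least 1.85-fold. The *Pax9* call was lost in 5 of 6 leave-one-out fits (adjusted p up to 0.116) and the *Alx4* call in all 6 (adjusted p up to 0.131).

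The *Dlx* genes split. While *Dlx1* and *Dlx2* were higher in maxilla, *Dlx5*, a marker of the lower arch and of olfactory epithelium, read 7.84, 7.82 and 8.23 in nasal and 6.95, 7.21 and 7.17 in maxilla (a difference of 0.85, adjusted p = 0.00226), with no overlap. Of 14 tested genes of oral and arch mesenchyme, 7 were higher in maxilla and 3 in nasal (median -0.48). Beside *Lhx8*, *Barx1*, *Lhx6* and *Osr1*, *Prrx1*, a homeobox gene of skeletogenic mesenchyme, read 11.60, 11.43 and 11.32 in maxilla against 9.95, 9.82 and 9.90 in nasal (2.95-fold, adjusted p = 6.7e-07). *Shox2*, a gene of the anterior palate and limb, went the other way at 4.39-fold (adjusted p = 0.00292). *Prrx1* and *Shox2*, both members of the list, were thus oppositely placed. Of 6 tested mandibular and distal arch genes, *Gsc* (at least 2.69-fold) and *Dlx5* were higher in nasal and *Gbx2* in maxilla (at least 1.48-fold, its call lost in 4 of 6 leave-one-out fits, adjusted p up to 0.108). *Hand1*, *Hand2* and *Edn1*, which mark the lower jaw arch, were called absent in both tissues, as was *Hoxa2*, which marks more caudal arches.

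Of 13 tested TALE homeobox genes, 4 were higher in maxilla and 1 in nasal (median -0.14). *Meis2*, a cofactor of homeodomain proteins in crest cells, read 10.31, 10.26 and 10.32 against 9.01, 9.04 and 9.23 (2.30-fold, adjusted p = 6.28e-07). The Iroquois genes *Irx4* (at least 1.92-fold), *Irx5* (a difference of -0.85) and *Irx2* (1.68-fold) went the same way, and *Pknox2* was higher in nasal (1.28-fold, call lost in 3 of 6 leave-one-out fits, adjusted p up to 0.0652). The 12 tested forkhead genes divided into 5 higher in nasal and 3 in maxilla (median 0.00). *Foxf1* (2.66-fold), *Foxd1* (2.15-fold), *Foxd2* (1.72-fold) and *Foxc2* (1.66-fold) were higher in nasal, and *Foxl2* (3.93-fold) and *Foxp2* (1.71-fold) in maxilla. Of 15 bHLH, Snail and related genes of crest and mesenchyme, 7 were higher in maxilla and 1 in nasal (median -0.39). *Tcf21*, a bHLH factor of cranial muscle and mesenchyme, was at least 3.29-fold higher in maxilla, *Twist2*, a dermal bHLH repressor, 3.01-fold, and *Snai2* and *Zeb2*, repressors tied to crest migration, 1.89-fold and 1.88-fold. *Id4*, an inhibitor of bHLH factors, was the 1 gene higher in nasal (1.48-fold). Among 11 nuclear receptors, 3 went each way. Beside *Nr2e1*, *Rarb*, a retinoic acid receptor (1.87-fold), and *Rora* (1.71-fold) were higher in nasal, and *Nr2f1* and *Nr2f2*, the COUP-TF receptors, were 1.73-fold and 1.51-fold higher in maxilla. *Nr4a2* was higher in maxilla by 1.32-fold, a call lost with the replicate block on the 6 arrays (adjusted p = 0.101) and in 4 of 6 leave-one-out fits (adjusted p up to 0.147). *Sall1*, a zinc finger gene, was 1.92-fold higher in nasal. The AP-2 relatives split. *Tfap2b* was 2.18-fold higher in nasal (adjusted p = 1.86e-05), and *Tfap2c* was 1.44-fold higher in maxilla, a call lost in all 6 leave-one-out fits (adjusted p up to 0.138).

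**Figure D3:**
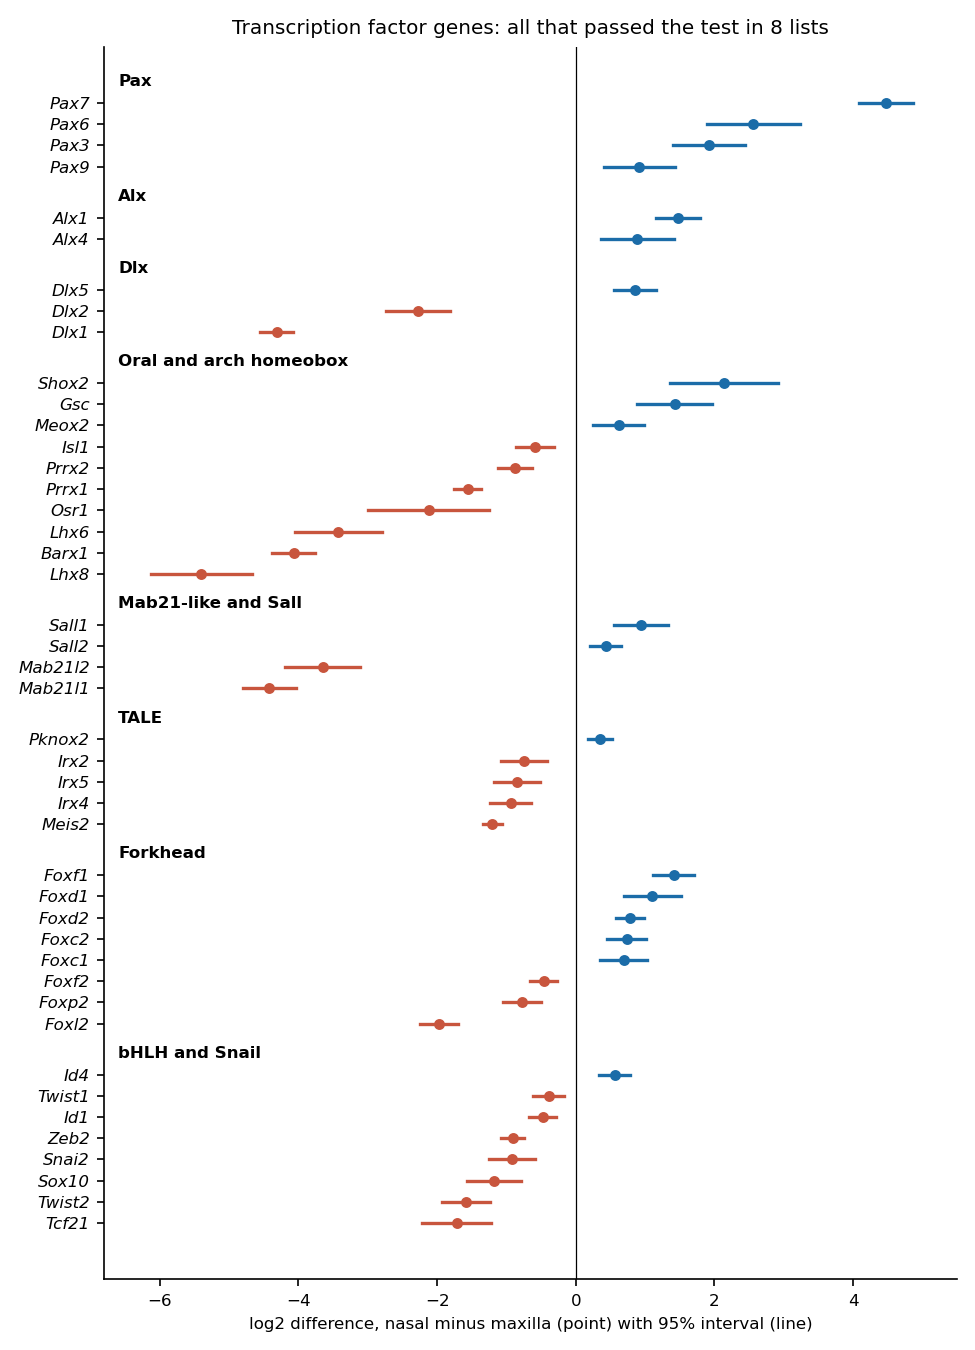
Points give the log2 difference (nasal minus maxilla) and lines its 95% interval for every gene that passed the test in 8 transcription factor lists, blue where higher in nasal and red where higher in maxilla. The *Pax* and *Alx* genes lie to the right of 0, the *Dlx* genes fall on both sides, and *Lhx8* lies farthest to the left at -5.40.

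Of the signaling lists, that of the retinoic acid pathway leaned most to nasal, with 6 of 9 tested members higher there and 1 in maxilla (median 0.89). *Aldh1a3*, which makes retinoic acid in olfactory and eye epithelium, read 10.16, 10.33 and 10.64 in nasal and 7.34, 7.93 and 9.45 in maxilla (4.40-fold, adjusted p = 0.0127). Maxilla replicate 3 was high, the fold was 6.69 without it (adjusted p = 0.000549), and the call was lost without maxilla replicate 2 (adjusted p = 0.0530). *Crabp1*, a retinoic acid binding protein of crest cells, read 13.47, 13.44 and 13.38 against 12.15, 12.15 and 11.85 (2.60-fold, adjusted p = 3.23e-06). Its groups did not overlap. *Rdh10*, which makes retinaldehyde (2.00-fold), and *Stra6*, a receptor for retinol transport (1.86-fold), followed. *Cyp26a1*, which degrades retinoic acid, was the 1 member higher in maxilla (1.51-fold, adjusted p = 0.0197), a call lost without nasal replicate 1 or nasal replicate 2 (adjusted p up to 0.0754).

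Of 4 tested Fgf ligands, *Fgf9* (2.05-fold, adjusted p = 1.78e-05) and *Fgf17* (2.02-fold, adjusted p = 0.00152), both called variable in maxilla, were higher in nasal. *Fgf8*, an ectodermal signal for facial growth, read 7.99, 8.11 and 8.19 in nasal and 7.56, 7.94 and 7.78 in maxilla, a difference of 0.33 that did not pass (adjusted p = 0.0908). It passed with quantile normalization (adjusted p = 0.0429). Of 15 feedback and target genes of Fgf signaling, 6 were higher in nasal and 0 in maxilla (median 0.15). They were *Flrt2* (1.91-fold), *Etv5*, an Ets factor (1.57-fold), *Dusp4*, a MAPK phosphatase (1.43-fold), *Spry4*, a feedback inhibitor (1.41-fold), *Il17rd*, a further inhibitor (1.33-fold), and *Spred3* (1.28-fold). The call was lost for *Dusp4* without maxilla replicate 2 (adjusted p = 0.0539) and for *Spred3* in 5 of 6 leave-one-out fits (adjusted p up to 0.105).

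Of 7 tested Wnt ligands, *Wnt5a*, a noncanonical ligand, was the 1 that passed, at 9.29, 9.36 and 8.86 in nasal and 8.09, 7.88 and 7.53 in maxilla (2.52-fold, adjusted p = 0.000278), with no overlap. *Wnt9b*, an ectodermal ligand needed for lip fusion, read 6.64, 6.79 and 6.69 against 6.92, 6.94 and 6.34, a difference of -0.02 (adjusted p = 0.960). The R-spondins, which amplify Wnt signals, parted: *Rspo1* was 3.31-fold higher in nasal (adjusted p = 1.03e-05) and *Rspo3* 2.78-fold higher in maxilla (adjusted p = 0.00388). Their receptors *Lgr5* (2.19-fold) and *Lgr4* (1.87-fold) were higher in nasal, and *Znrf3*, which removes Wnt receptors, was 1.59-fold higher in maxilla, a call lost without nasal replicate 1 or nasal replicate 2 (adjusted p up to 0.0504). *Sostdc1*, a Bmp and Wnt antagonist, was 1.77-fold higher in maxilla and *Dkk3* 1.37-fold higher in nasal.

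Of 15 Bmp ligands and antagonists, 5 were higher in nasal and 3 in maxilla (median 0.04). *Smoc2*, a matricellular protein, was 3.67-fold higher in maxilla, and *Grem1*, a Bmp antagonist, 1.91-fold higher in nasal. The calls of *Bmper* (1.92-fold), *Bmp5* (1.43-fold) and *Chrdl1* (at least 1.42-fold) in nasal, and of *Bambi* (1.37-fold) in maxilla, were each lost in 3 to 5 of 6 leave-one-out fits, and without 1 array the list held 1 to 3 calls in nasal and 1 or 2 in maxilla. In the Hedgehog pathway, *Boc* (1.58-fold) and *Cdon* (1.44-fold), co-receptors for Shh, were higher in nasal and *Disp1*, which releases the ligand, in maxilla (1.87-fold). *Shh* was 1.39-fold higher in maxilla, with the call lost in 4 of 6 leave-one-out fits (adjusted p up to 0.0711), and *Gli2* 1.16-fold higher in nasal, with the call lost with the replicate block on the 6 arrays (adjusted p = 0.122) and in 5 of 6 leave-one-out fits (adjusted p up to 0.129). Of 15 endothelin, Pdgf and chemokine genes, 5 were higher in nasal and 1 in maxilla. Beside *Cxcl13*, *Cxcr4*, a chemokine receptor (2.52-fold), *Ackr3*, its scavenging partner (1.95-fold), *Kitl* (1.70-fold) and *Kit* (1.39-fold) were higher in nasal, and *Ednrb*, the endothelin receptor of crest derivatives, 3.66-fold higher in maxilla. Of 18 Notch pathway genes, 4 were higher in nasal, led by *Hey1*, a Notch target, at 9.18, 9.16 and 9.37 against 7.69, 7.75 and 7.54 (2.98-fold, adjusted p = 1.41e-07), and *Hey2* was higher in maxilla (1.62-fold). These related genes thus parted.

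Of 22 semaphorins, Slits, netrins and their receptors, 6 were higher in maxilla and 0 in nasal (median -0.25). *Ntn1*, an axon guidance cue, read 6.80, 7.02 and 6.96 in maxilla and 5.73, 5.92 and 6.05 in nasal (2.03-fold, adjusted p = 0.000125). *Sema3c* (1.95-fold) and the semaphorin receptors *Nrp2* (1.84-fold) and *Nrp1* (1.77-fold) followed. The smaller differences of *Sema5a* and *Plxnd1* (1.49-fold and 1.47-fold) lost their calls in 3 and 4 of 6 leave-one-out fits (adjusted p up to 0.0680). Among 22 collagen chains, 9 were higher in maxilla and 4 in nasal (median -0.21). *Col23a1* (2.15-fold) and *Col9a1*, a cartilage collagen (2.07-fold), were higher in maxilla, and *Col14a1* (3.80-fold), *Col12a1* (at least 2.34-fold) and *Col1a2*, a chain of the main fibrillar collagen (1.92-fold), in nasal. *Col6a3* was 1.74-fold higher in maxilla, with the call lost in 4 of 6 leave-one-out fits (adjusted p up to 0.0791). Of 31 matrix glycoproteins and proteoglycans, 6 were higher in nasal and 5 in maxilla. *Lum*, a collagen-binding proteoglycan (3.89-fold), *Thbs1*, a thrombospondin (2.34-fold), and *Nid1*, a basement membrane linker (1.58-fold), were higher in nasal, and *Postn* and *Crispld2* (at least 2.04-fold) in maxilla. Among imprinted growth genes, *Igf2*, the fetal growth factor, read 11.93, 12.07 and 12.20 in maxilla and 11.21, 11.23 and 11.25 in nasal (1.78-fold, adjusted p = 1.85e-05). *Peg3* (1.72-fold) and the growth inhibitor *Cdkn1c* (1.72-fold) went the same way, and *Dlk1* was 1.71-fold higher in nasal.

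**Figure D4:**
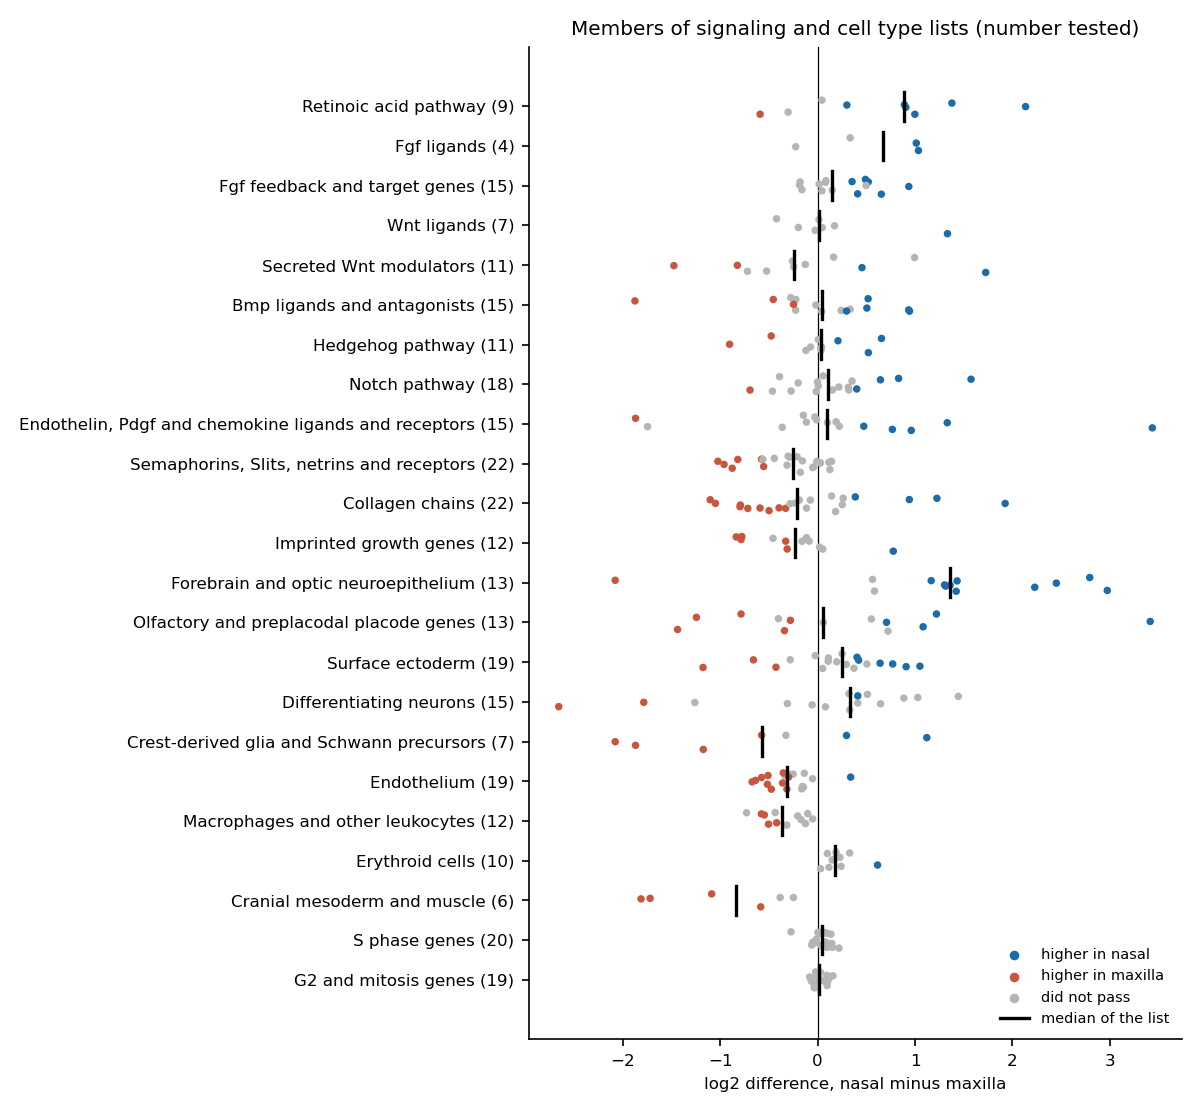
Each point is 1 tested gene placed by its log2 difference (nasal minus maxilla, horizontal axis), coloured blue or red where it passed the test in nasal or maxilla, with black bars at list medians. The retinoic acid and forebrain lists lie to the right with medians of 0.89 and 1.36, the endothelial and leukocyte lists lie mostly left of 0, and the cell cycle lists stay close to 0.

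Markers of tissues that a dissected prominence could hold were read next. Of 13 tested genes of forebrain and optic neuroepithelium, 10 were higher in nasal and 1 in maxilla (median 1.36), and their summed signal was 1499 to 1905 in nasal and 698 to 922 in maxilla. A further 8 genes of this list on the array were called present in neither tissue and were not tested. Some tested members, such as *Otx2* and *Fezf1*, entered only through a present call in nasal. The count, median and sums are therefore partly set by the filter. *Six6*, an eye and pituitary regulator, read 6.59, 6.98 and 7.86 in nasal and 4.33, 4.29 and 5.45 in maxilla (5.47-fold, adjusted p = 0.00143). *Dmrta2* was 4.69-fold and *Otx1* 2.70-fold higher. Nasal values of these genes lay above all maxillary ones. *Rax*, *Nkx2-1* and *Sox1*, which mark the early eye field, ventral forebrain and neural progenitors, were called absent in both tissues. *Emx2*, a dorsal forebrain gene, read 6.40, 6.60 and 6.26 against 5.75, 6.34 and 5.41 and did not pass (adjusted p = 0.106), but passed with the replicate block on the 6 arrays (adjusted p = 0.0334). How far brain tissue in the nasal fraction bears on *Otx2*, *Pax6*, *Fezf1* and *Nr2e1* was not tested.

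Placode genes divided, with 4 of 13 higher in nasal and 5 in maxilla. *Six4*, the first tested marker of the list, was among those higher in maxilla (a difference of -0.28). Its call was lost in 3 of 6 leave-one-out fits (adjusted p up to 0.0558). *Sp8*, *Eya2*, a cofactor of sine oculis homeobox factors (2.33-fold), and *Sox2*, a progenitor gene (2.12-fold), were higher in nasal, and *Ebf2* (2.71-fold), *Ebf1* (2.37-fold) and *Ebf3* (1.72-fold), factors of olfactory neurons and of mesenchyme, in maxilla. Of 19 genes of surface ectoderm, 6 were higher in nasal and 3 in maxilla (median 0.25), with summed signals of 8509 to 10087 in nasal and 6510 to 8268 in maxilla. *Lad1* (2.07-fold), *Epcam*, an epithelial adhesion molecule (1.88-fold), *Rab25* (1.71-fold) and the claudin *Cldn6* (1.56-fold) were higher in nasal. The basal keratin *Krt14* (2.26-fold) and *Trp63*, the master gene of stratified epithelium (1.58-fold), were higher in maxilla. Epithelial genes thus moved both ways. Of the first 3 keratins listed, *Krt5* (0.11), *Krt7* (0.37) and *Krt8* (0.51, adjusted p = 0.0544) did not pass, but *Krt7* and *Krt8* passed with the replicate block on the 6 arrays (adjusted p = 0.0300 and 0.0083).

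Genes of vessels and leukocytes differed modestly. Of all tested genes, 45.8% read higher in nasal, whether or not they passed. Of 19 endothelial genes, 18 were higher in maxilla, 10 of them past the threshold, and 1 was called higher in nasal (median -0.32). Their summed signal was 4105 to 4639 in maxilla and 3284 to 3344 in nasal. *Tek*, the angiopoietin receptor (1.59-fold), *Aplnr*, the apelin receptor (1.49-fold), *Cldn5* (1.43-fold), *Cdh5*, the endothelial cadherin (1.42-fold), and *Emcn* (1.39-fold) were higher in maxilla, as was *Tie1* (1.56-fold), whose call was lost without nasal replicate 2 (adjusted p = 0.0536). The defining markers *Pecam1* (-0.14) and *Kdr* (-0.34, adjusted p = 0.0557) did not pass. Leaving out 1 array left 6 to 8 endothelial calls in maxilla. All 12 macrophage and leukocyte genes read higher in maxilla, 4 past the threshold, among them *Ptprc*, the leukocyte antigen CD45 (1.49-fold), *Mrc1* (1.46-fold) and *Tyrobp* (1.42-fold). *Csf1r*, the macrophage growth factor receptor, differed by -0.32 (adjusted p = 0.0612) and passed with the replicate block on the 12 arrays (adjusted p = 0.0479), while *C1qb* (1.34-fold) was lost with the block on the 6 arrays (adjusted p = 0.0590) and in 3 of 6 leave-one-out fits (adjusted p up to 0.0820). All 10 tested erythroid genes read higher in nasal (median 0.18), with summed signals of 33415 to 36088 in nasal and 29856 to 32393 in maxilla. Of these, 1 passed, *Car2* (0.62), with its call lost in 4 of 6 leave-one-out fits (adjusted p up to 0.0658). The embryonic globins *Hba-x* (0.17), *Hbb-bh1* (0.15) and *Hbb-y* (0.12) did not pass.

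Genes of neurons were mixed, and 4 of 6 tested genes of cranial mesoderm and muscle passed as higher in maxilla. *Gap43*, a growth cone protein, read 10.23, 10.12 and 9.87 in maxilla and 8.42, 8.33 and 8.12 in nasal (3.45-fold, adjusted p = 1.75e-06), and maxilla replicate 3 was not far from its group for it. *Dcx* read 8.15, 7.50 and 5.20 in maxilla against 6.57, 6.88 and 6.46 in nasal, and *Tubb3* 7.97, 7.78 and 5.28 against 7.99, 7.95 and 7.75, and neither passed (adjusted p = 0.801 and 0.371). In both, the outlying value was maxilla replicate 3. Without it *Dcx* passed as higher in maxilla (a difference of -1.19, adjusted p = 0.0127). Of 15 genes of differentiating neurons, 1 was higher in nasal and 2 in maxilla, and 1 and 4 without that array, when the median moved from 0.33 to -0.06. Of 7 tested genes of sensory neurons, 2 passed in each direction (median 0.03). *Pou4f1*, a sensory neuron factor, was 3.19-fold higher in maxilla and *Runx1*, a factor of sensory neuron and blood development, 1.84-fold higher in nasal, as was *Ret*, a neurotrophic receptor (1.67-fold, call lost in 4 of 6 leave-one-out fits, adjusted p up to 0.102). Of 7 glial and Schwann precursor genes, 4 were higher in maxilla and 2 in nasal, or 3 and 1 without maxilla replicate 3. Their summed signals overlapped, at 1493 to 1625 in nasal and 1259 to 1683 in maxilla. *Fabp7*, *Ednrb* and *Sox10*, the crest glia regulator (2.26-fold), were higher in maxilla, as was *Moxd1* (1.49-fold, call lost in 3 of 6 leave-one-out fits, adjusted p up to 0.0940). *Tfap2b* and the marker *Erbb3* were higher in nasal, *Erbb3* by 0.30 with its call lost in 4 of 6 leave-one-out fits (adjusted p up to 0.109). The mesoderm and muscle calls were led by *Actc1*, cardiac actin (3.51-fold), and *Tcf21*, and 2 to 4 calls were left without 1 array. *Myf5*, a muscle determination factor, differed by -0.38 (adjusted p = 0.146). *Msc* (at least 2.13-fold) lost its call in 4 of 6 leave-one-out fits (adjusted p up to 0.0998), and *Isl1*, a LIM homeobox gene (difference of -0.58), in 3 of 6 (adjusted p up to 0.0581). *Myod1* was called absent in both tissues. Of 20 genes of S phase and 19 of G2 and mitosis, 0 passed, with medians of 0.04 and 0.01, and 3 and 0 of them had an unadjusted p under 0.05.

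**Figure D5:**
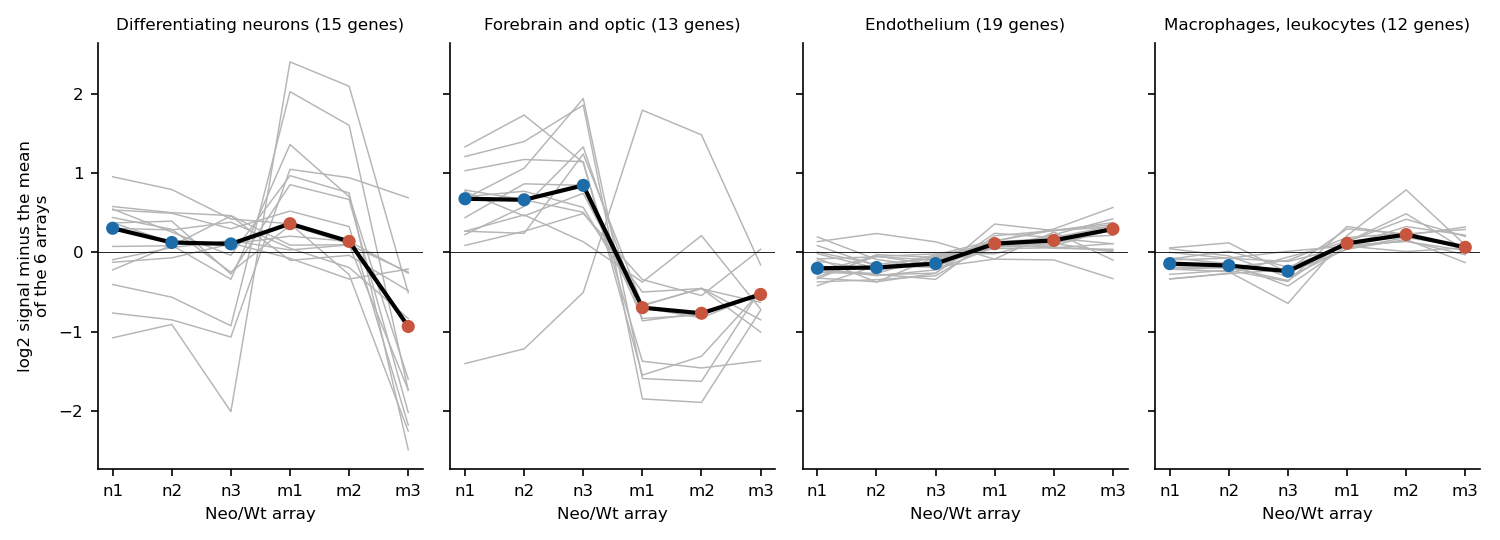
Grey lines follow single genes of 4 tissue lists across the 6 Neo/Wt arrays (n, nasal; m, maxilla), as log2 signal minus the gene's mean, and points on the black line give the list's median in each array. Maxilla replicate 3 falls below the other arrays for differentiating neurons, most forebrain genes are high in the 3 nasal arrays, and endothelial and leukocyte genes are slightly higher in maxilla.

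The same contrast in Neo/Null embryos, measured on other arrays, gave 1349 probe sets (5.86%) higher in nasal and 915 (3.97%) higher in maxilla. Both contrasts used the same variance estimate for a probe set, and probe sets were admitted on Neo/Wt detection calls. Passing in both genotypes is therefore not an independent replication. Of the 949 and 986 Neo/Wt calls, 942 and 964 had the same sign in Neo/Null. Over all tested probe sets, 49.7% had a nasal and 50.3% a maxillary sign in Neo/Null. Of the Neo/Wt calls, 763 and 605 passed in Neo/Null too (80.4% and 61.4% of the Neo/Wt lists, 56.6% and 66.1% of the Neo/Null lists). Among at least 2-fold calls, 187 of 189 and 123 of 126 passed in both. No difference between the genotypes passed the test (limma, 0 of 23025, smallest adjusted p = 0.760), and 1104 (4.79%) had an unadjusted p below 0.05. Ranked by the p of that difference, the first 5 genes were *Rnf225*, *Emx2*, *Zic1*, *Vstm2b* and *Rspo1*. *Emx2* differed between nasal and maxilla by 0.58 in Neo/Wt and 2.22 in Neo/Null, *Zic1*, a zinc finger gene of dorsal neural tissue, by 1.41 and 3.05, and *Rspo1* by 1.73 and 2.69. *Vstm2b* read -0.20 and 0.35. *Rnf225* was the 1 probe set called in opposite directions, 0.25 in Neo/Wt (adjusted p = 0.0192) and -0.23 in Neo/Null (adjusted p = 0.0230), and its Neo/Wt call was lost with the replicate block on the 6 arrays (adjusted p = 0.0620) and in 3 of 6 leave-one-out fits (adjusted p up to 0.0787).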

How the data were processed

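Total RNA of pooled prominences was hybridised by the authors to Affymetrix Mouse430 2.0 arrays. The authors deposited 1 log2 signal for each probe set and array. The methods name GeneChip Operating Software with a scaling factor to a common target intensity, and how probes were summarised and logged is not settled by the sources used here. The authors also deposited a detection score per group of 3 arrays (1 present, 0 variable, -1 absent), and their rule for combining calls is not given. A further 12 value columns repeat the same log2 values and were not used beyond a check that they are equal.

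Differences were fitted with limma 3.58.1 in R 4.3.3 on all 12 arrays (8 residual and 3.36 prior degrees of freedom), adjusted over 23025 probe sets. A gene was represented by the probe set with the highest mean of the 6 arrays among those tested, and 34945 of 45037 probe sets had 1 symbol. "At least" before the fold of a gene marks an absent call in the lower tissue. Lower signals were there raised to the lowest signal of any probe set called present in that group and array, where they fell below it. This rarely changed the fold, so "at least" is not a lower confidence limit. Fit and test were tested on simulated data. No technical batch beyond replicate number is given, and array number limits precision.

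Same-numbered nasal and maxillary arrays deviated together (correlations of 0.20, 0.23 and 0.28 in Neo/Wt, 0.24, 0.25 and 0.18 in Neo/Null). Whether the numbers pair samples is not given in the sources used here. The main fit had no replicate block, so its p-values and intervals leave out any pairing. Fits with a replicate block were alternatives.

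Named genes were the 15 with the largest difference among those that passed without overlap of the groups and the 5 with the smallest p in each direction, the called members of each list with the largest difference (up to 6), the first 3 tested markers of each cell type list, *Tfap2a*, *Fgf8* and *Wnt9b*, and the 5 genes with the smallest p between genotypes. The rule gave 220 genes with *Nbea* and *Six2*, and those named were taken from it without regard to stability. Members and lists were chosen with earlier results of these data known. Unnamed clones are counted and not named.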

Additional observations from a re-analysis of the deposited data

How the results depend on the processing

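In Neo/Wt, 949 probe sets were higher in nasal and 986 in maxilla. The replicate block gave 982 and 1203 on the 6 Neo/Wt arrays and 1102 and 1335 on all 12, and 118 and 110, or 120 and 118, genes of the lists. The 6 arrays alone gave 723 and 758, quantile normalization 1073 and 1006, and a shift to 1 median 1169 and 961. Array weights gave 1485 and 1642. An ordinary t statistic on the 6 arrays gave 152 and 133 probe sets and 22 and 26 list genes, and adding a 2-fold minimum left 189 and 126. At least 2-fold counts fell to 58 and 38 with 64 units added before log2, 101 and 87 for probe sets present in both groups, 90 and 77 at a mean log2 of at least 6, and 77 and 44 with the ordinary t statistic. The causes were not tested. Leaving out 1 array gave 636 to 873 in nasal and 593 (without nasal replicate 1) to 911 in maxilla. For Neo/Null the counts were 869 (without Neo/Null maxilla replicate 2) to 1507 in nasal and 587 (without Neo/Null maxilla replicate 3) to 1049 in maxilla. For the difference between genotypes, larger in Neo/Null, they were 0 to 1, the 1 without Neo/Wt nasal replicate 2.

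Stability was counted over all 220 genes that the naming rule gave, some of which are not named here. Of the 189 that passed, 149 passed in all 6 fits without 1 Neo/Wt array and 181 under all 3 scalings. With the ordinary t statistic on the 6 arrays, 131 lost their call. Among the leading genes these were *Cldn9*, *Otx2*, *Irs4*, *Lhx6*, *Vgll2*, *Nefm*, *Osr1* and *Fabp7* (adjusted p from 0.0612 to 0.298). The direction turned only for 8 genes, none of which passed in the fit of all 12 arrays. Without 1 array, *Tfap2a* ranged from -0.0122 to 0.0535, *Wnt9b* from -0.2219 to 0.0785, *Maf* from -0.0997 to 0.1742, *Dcx* from -1.1870 to 0.2921, *Elavl2* from -0.0234 to 0.1483, *Bmp2* from -0.1482 to 0.1472, *Sp6* from -0.0879 to 0.0376 and *Sox9* from -0.0713 to 0.0630. *Wnt9b* was 0.0022 with quantile normalization and *Bmp2* 0.0050 with a shift to 1 median. With array weights *Bmp2* was 0.0546, *Sp6* 0.0369 and *Sox9* -0.0224. Adding 64 units before log2 lowered the folds of dim genes, for *Pax7* from 22.3 to 5.09 and for *Lhx8* from 42.3 to 15.6.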

Other observations

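Cell adhesion genes also differed between the prominences. Of 16 tested cadherins and protocadherins, 5 were higher in nasal and 4 in maxilla (median 0.13). *Pcdh20* read 5.89, 6.22 and 6.62 in nasal and 4.44, 4.30 and 3.75 in maxilla (at least 4.24-fold, limma adjusted p = 7.84e-05), and *Pcdh19* was 2.15-fold higher in nasal. *Pcdh17* was 1.70-fold higher in maxilla. *Pcdh8* was higher in nasal by 0.68 on the log2 scale, a call lost with the replicate block on the 6 arrays (adjusted p = 0.0721) and in 4 of 6 leave-one-out fits (adjusted p up to 0.0902).

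Among Tgf-beta genes, *Tgfb2*, a ligand, was higher in nasal and *Tgfbi*, a matrix protein induced by it, higher in maxilla, both 1.75-fold and both lost in 3 of 6 leave-one-out fits (adjusted p up to 0.0699 and 0.0878). Neighbours were read as consecutive tested genes on a chromosome, unnamed clones included. Of 17 such pairs in which both genes were at least 2-fold different, 13 moved the same way and 4 in opposite ways, out of 199 such genes. Since 131 of the 199 were higher in nasal and 68 in maxilla, unrelated pairs would often share a direction too. That share was not computed, so the counts are descriptions. The genes of 2 pairs overlapped.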
